A study of Mus musculus with 4 samples.

Results

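R3hdm1 encodes an R3H domain protein, and its circular RNAs were counted here in C2C12, an established line of mouse myoblasts. The circles were taken by position in the mm9 genome, because the deposited files pair no symbols with their transcripts: every entry on the plus strand of chromosome 1 that starts at or after 129995000 and ends by 130136000. This gave 82 of the 69136 circles in the files, of which 14 were exonic (of 4074 exonic circles in all) and 68 intronic. The locus was picked because its back-splice reads were many after RPAD and few in total RNA, so that contrast is described here and not tested. No circle lay near either limit of the window: the nearest on the same strand ended at 129831237 (1 read) and started at 130148780 (8 reads in total RNA 1).

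All cells had been grown dense and switched to 2% horse serum, the labels' differentiation medium, 3 to 4 days earlier; in such medium C2C12 myoblasts fuse into myotubes. The libraries were 2 of total RNA, labelled control, and 2 of RNA prepared by RPAD. RPAD digests linear RNA with RNase R (30 min), adds poly(A) tails to the linear RNA that is left and removes it on oligo(dT) beads. The labels name C2C12 for every library but HeLa RNA in the RNase R reaction, which was not resolved. Whether replicate libraries are separate cultures is not labelled, so the spread between them may be technical. Circles at the position of titin, a protein of the muscle sarcomere, held 7318 and 8085 of every 100000 back-splice reads in the total RNA pair, and 5731 and 4376 of every 100000 in the RPAD pair.

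A circular RNA forms when the end of an exon is spliced back to the start of the same or an earlier exon, which leaves a closed molecule with no tail. An intronic circle keeps part of an intron from its 5′ splice site onward. The R3H domain is known to bind single-stranded nucleic acids, and an intron of R3hdm1 carries the microRNA gene Mir128-1. A back-splice read shows which end was joined to which start. It does not show which exons lie between or beside them. Exon counts, spliced lengths and flanking introns below are those of the transcript model each library's entry names.

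R3hdm1 circles had few reads in total RNA and many in RPAD. Reads at the locus numbered 29 (total RNA 1), 18 (total RNA 2), 1851 (RPAD 1) and 1881 (RPAD 2). Per 100000 back-splice reads the total RNA pair was at 74.6 and 50.0 and the RPAD pair at 1230 and 984. The groups did not overlap, and the RPAD libraries differed from each other by far less than from total RNA. The means were 62.3 ± 17.4 and 1107 ± 174 (SD, n = 2 each), a ratio of 17.8. Among all hosts listed in a library, the locus ranked 7 of 1315 in RPAD 1 and 12 of 1748 in RPAD 2, and 252 of 3799 in total RNA 1 and 438 of 3256 in total RNA 2. The lists differ in length, so no change is read from these ranks. A host here is a set of transcripts that share a junction or an intron. By the scaled counts of the fit below, both RPAD libraries were above both total RNA libraries for 6.18% of 1425 tested hosts. R3hdm1 was among them and was picked on this contrast, so the lack of overlap is only described. The files held 38850 and 35981 back-splice reads for the total RNA pair and 150478 and 191246 for the RPAD pair. Sequencing depth is not given by these totals, so every level is relative to the library's other circles.

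**Figure D1:**
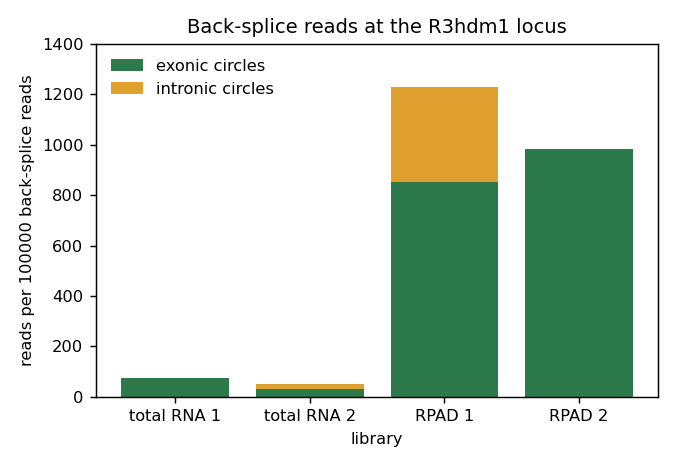
Reads at the R3hdm1 locus per 100000 back-splice reads in each of the 4 libraries, stacked by exonic and intronic circles (1 bar per library, no error bars). The 2 RPAD bars reach 1230 and 984, the 2 total RNA bars 74.6 and 50.0, and intronic circles appear in total RNA 2 and RPAD 1.

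Exonic circles alone gave nearly the same ratio. Per 100000 exonic back-splice reads the locus stood at 179 and 71.5 (total RNA 1 and 2) and at 2296 and 2048 (RPAD 1 and 2), which gives a ratio of means of 17.3. The number of different exonic circles did not rise with the reads: total RNA 1 and 2 listed 6 and 5, RPAD 1 and 2 listed 7 and 4. Of the 14 exonic circles, 4 were listed in RPAD alone, 6 in total RNA alone and 4 in both. Each of the 6 circles of total RNA alone had few reads. The 7 exonic circles with under 10 reads over the 4 libraries had from 1 to 6 reads each.

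Most reads came from circles in the 3′ part of the gene, around exons 16 and 17 of the transcript ENSMUST00000097596. Exon 16 (297 nt) runs from 130090037 to 130090333 and exon 17 (124 nt) from 130093551 to 130093674. Circles whose model holds exon 16 took 98.6% of exonic locus reads in RPAD 1 (95% interval 97.8 to 99.2) and 100% in RPAD 2 (99.8 to 100). In total RNA they took 69.0% (20 of 29 reads, interval 49.2 to 84.7) and 18.2% (2 of 11 reads, interval 2.28 to 51.8). Both RPAD shares lay above both intervals, and the total RNA reads are too few to say more. The locus was picked for its RPAD reads and exon 16 was named for where they lie. The difference between the groups is therefore described and not tested. All intervals are exact Clopper-Pearson ones and cover counting error only, since molecular identifiers did not mark PCR copies.

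**Figure D2:**
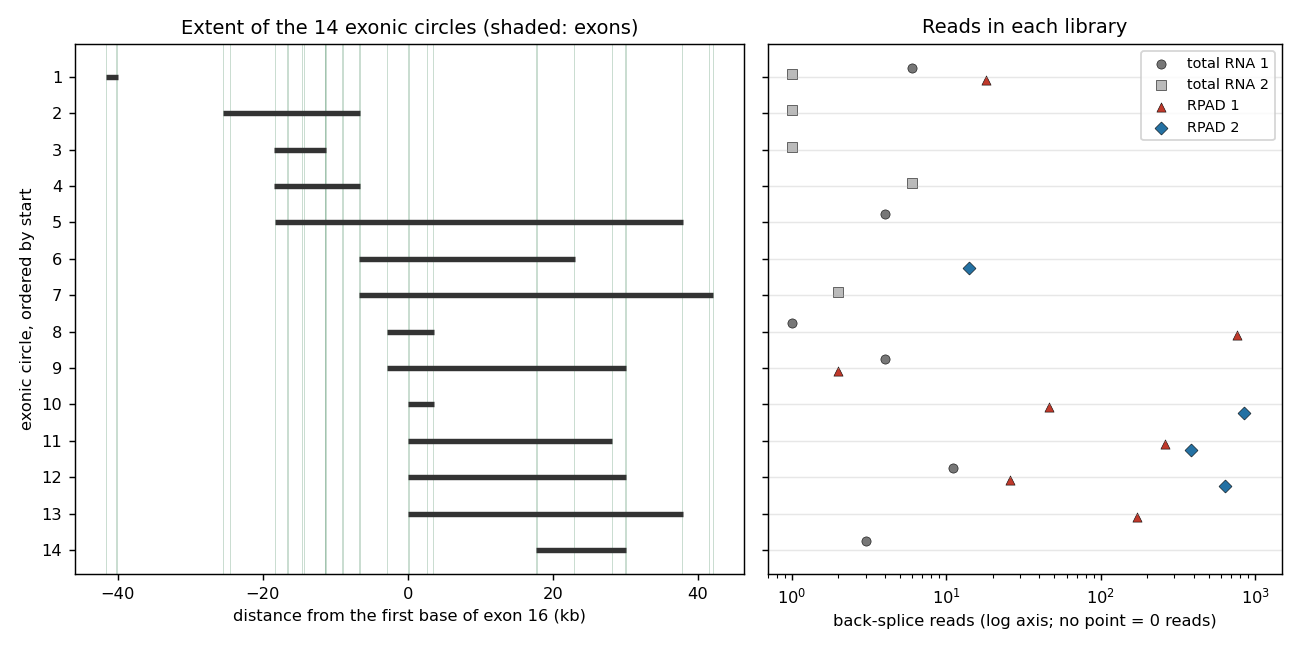
Left, the extent of the 14 exonic R3hdm1 circles in kb from the first base of exon 16, with exons shaded; right, their back-splice reads in each library on a log axis, where a missing point is 0 reads. All RPAD points above 100 reads belong to circles that start at exon 16 or at the exon just before it, and no total RNA point exceeds 11 reads.

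A circle of exons 16 and 17 alone, from 130090037 to 130093674, had the most reads. It was unlisted (0 reads) in the total RNA pair and had 46 reads in RPAD 1 and 847 in RPAD 2. Both RPAD libraries were thus above total RNA, but most of the reads came from RPAD 2. By the scaled counts of the fit below, both were above for 9.96% of 924 tested circles. The locus was picked on this contrast, so nothing is read from it. The circle spans 421 nt after splicing in the model of RPAD 2. The model of RPAD 1 places a further exon of 49 nt (130092729 to 130092777) between the same ends. A count of 0 allows up to 3 reads, which is 7.72 and 8.34 per 100000 in total RNA 1 and 2, against 30.6 per 100000 for this circle in RPAD 1.

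In RPAD 1 the leading circle ended at the same base but began 1 exon earlier. It runs from 130087215 to 130093674 and starts with an exon of 102 nt. It had 760 reads in RPAD 1 and 0 in RPAD 2, and 1 and 0 reads in the total RNA pair. Its reads were thus nearly all from a single library, in which it took 59.1% of exonic locus reads (95% interval 56.4 to 61.8). No RPAD 2 entry of the locus names a model with the 102 nt exon, and whether the transcript set used for that library held it cannot be told from the files.

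The end of exon 17 was the most used end in both RPAD libraries, with different starts. Circles ending there had 806 reads in RPAD 1 and 847 in RPAD 2, against 1 and 0 in total RNA. As a share of exonic locus reads this was 62.7% in RPAD 1 (95% interval 60.0 to 65.4) and 45.0% in RPAD 2 (42.8 to 47.3). These intervals do not overlap, but they take each read as independent, and PCR copies were not marked. In RPAD 1 the starts divided into 760 reads at the 102 nt exon and 46 at exon 16. In RPAD 2 all 847 were at exon 16.

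Of the longer circles, the one that closes exon 20 onto exon 16 differed least between the RPAD libraries. It runs from 130090037 to 130118280 and has 5 exons and 832 nt in the model of RPAD 2. RPAD 1 had 262 reads of it and RPAD 2 had 385, while the total RNA pair had 0. Its share of exonic locus reads was 20.4% (95% interval 18.2 to 22.7) and 20.5% (18.7 to 22.4), so the intervals overlap almost wholly. It was, with the circle of exons 16 and 17, 1 of 2 locus circles listed in both RPAD libraries and in neither total RNA library. Of 121 exonic circles of any gene listed in both RPAD libraries, 20 (16.5%) had 0 reads in total RNA. At this locus it was 2 of 3, a count fixed by how the locus was picked.

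The third circle listed in both RPAD libraries closes exon 21 onto exon 16 and was the main one seen in total RNA 1. It runs from 130090037 to 130120218, with 6 exons and 1005 nt in the models of total RNA 1 and RPAD 2. Its reads numbered 26 in RPAD 1 and 635 in RPAD 2, and 11 and 0 in the total RNA pair. Per 100000 back-splice reads RPAD 1, at 17.3, was below total RNA 1, at 28.3, and the groups overlapped. RPAD 2 stood apart, with 33.8% of its exonic locus reads on this circle (95% interval 31.6 to 35.9) against 2.02% in RPAD 1 (1.33 to 2.95).

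The 3 remaining circles with at least 10 reads were each seen in 1 RPAD library. The circle from 130090037 to 130128044, which reaches an exon of 145 nt beyond exon 21, was listed by RPAD 1 alone, with 171 reads. The circle from 130083335 to 130113129, exons 15 to 19 (5 exons, 880 nt), was listed by RPAD 2 alone, with 14 reads. The circle from 130048321 to 130049976 lies far upstream and holds an exon of 209 nt and one of 211 nt. Total RNA 1 had 6 reads of it, total RNA 2 had 1, RPAD 1 had 18 and RPAD 2 had 0. It was the only exonic circle of the locus listed in both total RNA libraries. Its level in RPAD 1, 12.0 per 100000, lay below the 15.4 of total RNA 1.

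**Figure D3:**
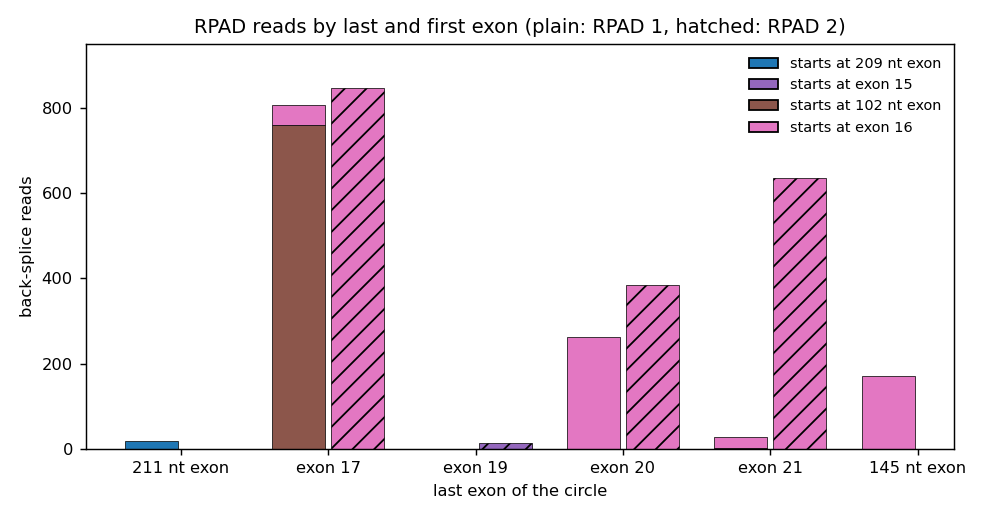
Back-splice reads of exonic R3hdm1 circles in RPAD 1 (plain) and RPAD 2 (hatched) by the last exon of the circle, coloured by its first exon (single counts, no error bars). At exon 17 the bars are 806 and 847 high, most of the first starting at the 102 nt exon and all of the second at exon 16, at exon 20 they are 262 and 385, and at exon 21 they are 28 and 635.

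By start, exon 16 held 39.3% of exonic locus reads in RPAD 1 (505 of 1285) and 99.3% in RPAD 2 (1867 of 1881), through 4 and 3 different ends. The 102 nt exon held 59.3% (762 reads) and 0%. The 14 circles used 8 starts and 9 ends between them, and circles that share a start or end are not independent of each other. In total RNA no start was shared by both libraries except that of the upstream circle. Reads in total RNA 2 lay mainly on circles starting at 130071526, upstream of exon 15 (7 of 11 reads), which had 0 reads in every other library.

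Exonic R3hdm1 circles were shared between the RPAD libraries in 3 of 8 cases (37.5%), and for all exonic circles it was 121 of 1155 (10.5%). Between the total RNA libraries it was 1 of 10 at the locus (10.0%) and 519 of 3369 over all exonic circles (15.4%). Of locus circles with at least 20 reads in RPAD 1, 2 of 5 were at 0 reads in RPAD 2; of those with at least 20 in RPAD 2, 0 of 3 were at 0 in RPAD 1. Over all exonic circles these shares were 68.9% and 73.6%. With at least 100 reads in RPAD 1, 2 of 3 locus circles were at 0 in RPAD 2 (66.7%), close to the 68.6% over all exonic circles. A circle missing from 1 RPAD library was thus the usual case in these data. The number of locus circles is small, and the locus was picked for reads in RPAD.

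Intronic circles of the locus all came from 1 intron and nearly all from 1 library. The intron lies between exons 19 and 20, from 130113130 to 130118176 (5047 nt). Its circles held 566 reads in RPAD 1 and 7 in total RNA 2, and 0 in total RNA 1 and RPAD 2. They made up 30.6% of locus reads in RPAD 1 (95% interval 28.5 to 32.7) and 38.9% of the 18 in total RNA 2 (17.3 to 64.3). In RPAD 2 the share was 0% of 1881 locus reads (interval 0 to 0.196). The intron was known to the transcript set of RPAD 2, where it flanks the circle of exons 15 to 19. Presence of these circles therefore did not follow the groups.

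All 68 intronic circles start at the 5′ splice site, and their ends were spread over the next bases. In RPAD 1 there were 67 different ends in a window of 85 positions, from 154 to 238 nt after the splice site, with a median over reads of 190 nt. The end with most reads had 21, or 3.71% of the intron's reads. The 6 ends of total RNA 2 lay within the same window, from 161 to 224 nt. The median end was 4857 nt short of the 3′ splice site in RPAD 1. Circles of other introns were described in the same way: RPAD 1 listed 208 introns with at least 100 intronic reads. Among them the R3hdm1 intron was longer than most (median 1302 nt, 8 longer) and had more ends than most (median 34, 19 with more). It also had more reads than most, 566 against a median of 189.5 (29 with more). Its largest share on a single end was among the lowest (median 9.22%, 5 lower). More reads can give more ends, and a largest share can be lower where reads lie on more ends. Reads, ends and largest share are thus not separate traits. The locus was picked for its reads in RPAD, so nothing is read from these ranks. Of those 208 introns, 146 (70.2%) had 0 intronic reads in RPAD 2, as this one did.

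**Figure D4:**
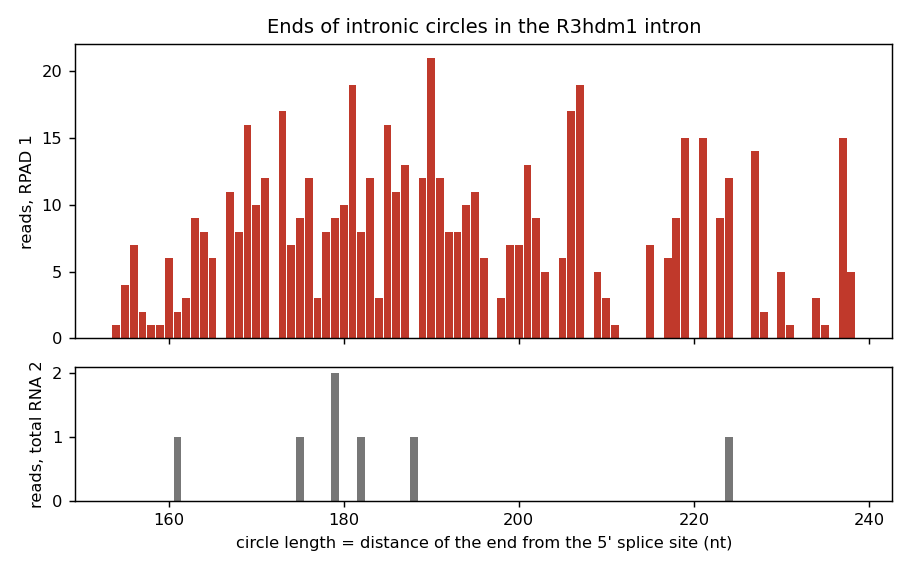
Back-splice reads of intronic R3hdm1 circles by circle length in nt, which is the distance of the end from the 5′ splice site, in RPAD 1 (top) and total RNA 2 (bottom); the other libraries had 0 reads. Ends in RPAD 1 are spread over the window from 154 to 238 nt, at 67 of its 85 positions, with at most 21 reads at any one. The 7 reads of total RNA 2 fall inside this window.

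The downstream introns and the genomic spans of R3hdm1 exonic circles lay mostly above the median of all exonic circles. The upstream intron had a median of 5463 nt over the 14 circles (83 to 48260 nt), against 4334 nt over 3919 exonic circles of all genes with one, and 8 of the 14 lay above that. The downstream intron had a median of 4388 nt (770 to 14107 nt), against 3494 nt over 3946, with 11 of the 14 above. For the 7 circles with at least 10 reads the medians were 6550 nt upstream (4 of 7 above the median of all) and 7681 nt downstream (6 of 7 above). The upstream length depends on the model. Circles starting at 130090037 had 6550 nt upstream where the model came from RPAD 2. The one with that start that ends at 130128044 had 2720 nt, below the median of all, in the model of RPAD 1. The upstream medians and counts thus rest on the model named, and the summed lengths use the same introns. Upstream and downstream introns summed had a median of 9190.5 nt, below the 10176 nt over 3838 circles, with 6 of the 14 above. For the circles with at least 10 reads the summed median was 14231 nt, with 4 of 7 above. The genomic span from start to end had a median of 23631 nt against 5733 nt, and 12 of the 14 lay above the median of all. Spliced length had a median of 943 nt against 513 nt. Several locus circles share a flanking intron, so these are descriptions without a test.

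**Figure D5:**
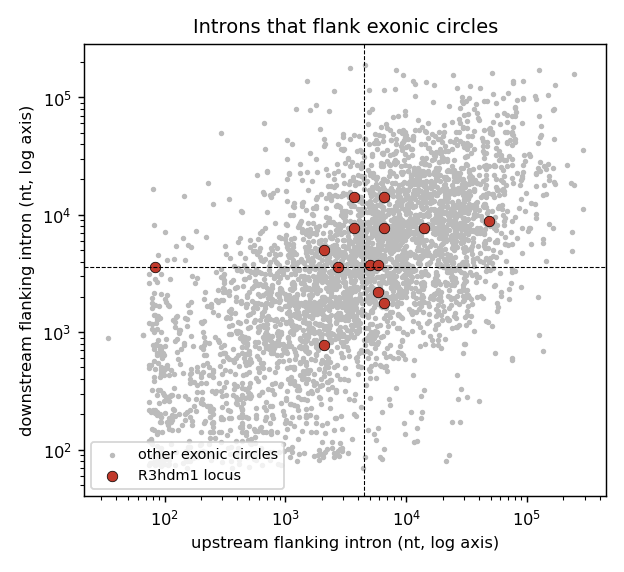
Length of the upstream and downstream flanking introns (both axes log) of 3838 exonic circles with both, with the 14 of the R3hdm1 locus in red and the medians over all plotted circles as dashed lines. The red points lie on both sides of each line, from 83 to 48260 nt upstream and from 770 to 14107 nt downstream. Introns are those of the model named by each circle's entry with most reads.

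The fit across all circles called none of the locus circles it tested. Of its 82 circles, 5 passed the low-count filter, 4 exonic and 1 intronic. Of these 5, edgeR's quasi-likelihood test with Benjamini-Hochberg adjustment called 0, as it called 0% of all 924 circles tested (162 at an unadjusted p under 0.05). DESeq2 called 0 as well, with 164 at an unadjusted p under 0.05. The log2 fold change was above 0 for 3 of the 5. The upstream circle, at -1.41, and the intronic circle, at -0.42, were the exceptions. Both RPAD libraries were above both total RNA libraries for 2 of the 5, against 9.96% of the tested circles. These shares rest on the contrast the locus was picked on, and nothing is read from them.

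Summed as a host, R3hdm1 had a log2 fold change of 3.88 (SE 0.87) relative to the other hosts tested. A higher log2 fold change was found for 2.67% of the 1425 tested hosts. The host was not called by edgeR, which called 0% of the 1425 (376 at an unadjusted p under 0.05). Without RPAD 1 or without RPAD 2 it was called, with log2 fold changes of 3.94 and 3.91, but those fits called 37.7% and 43.7% of all 1425 hosts. Without total RNA 1 or without total RNA 2 it was not called. Both RPAD libraries were above both total RNA libraries for 6.18% of tested hosts, R3hdm1 among them. With exonic reads alone the log2 fold change was 4.13 (SE 0.95).

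Neighbouring hosts on chromosome 1 did not have the reads of R3hdm1 in RPAD. R3hdm1 was picked for those reads, so nothing is read from this contrast. Of all hosts, fewer were listed in the RPAD pair (1315 and 1748) than in the total RNA pair (3799 and 3256). Within 1000000 nt on either side, 6 other hosts were listed, with 50 and 38 reads together in the total RNA libraries, 6 in RPAD 1 and 0 in RPAD 2. The next host on the same strand, from 130148780 to 130172090 (ENSMUST00000027592), had 6 reads in RPAD 1 and 0 in RPAD 2, and 16 and 28 in the total RNA pair. A host on the minus strand, from 130264942 to 130285695 (ENSMUST00000027602), had 30 reads in total RNA 1, 7 in total RNA 2 and none in RPAD (0 and 0). In total RNA these 2 neighbours had 44 and 37 reads over both libraries, close to the 47 of R3hdm1. Exonic reads in total RNA 1 and 2 were 16 and 27 for the same-strand neighbour and 29 and 11 for R3hdm1. The minus-strand neighbour had 0 and 1, so nearly all its reads were intronic.

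The hosts with the most similar levels over the 4 libraries were found among the 90 others with at least 20 exonic reads in each RPAD library. Likeness was the Euclidean distance of log2(reads per 100000 + 1). The nearest, at a distance of 1.79, was a minus-strand host of chromosome 9, from 49314958 to 49377930. Its levels were 51.5 and 22.2 per 100000 (total RNA 1 and 2) and 687 and 505 (RPAD 1 and 2). These levels sum exonic and intronic circles. Its exonic reads were 2 of 20 and 0 of 8 in the total RNA pair, 245 of 1034 in RPAD 1 and 728 of 966 in RPAD 2. Its exonic share was thus below that of R3hdm1 in each library. The other 4 were at distances of 3.15 to 3.71, well beyond that of the chromosome 9 host. They lay on chromosome 5 (from 96511515, from 122229427 and from 107047090) and chromosome 10 (from 50324557). The one at 96511515 stood at 90.1 and 108 per 100000 (total RNA 1 and 2) and at 514 and 155 (RPAD 1 and 2). Ratios of mean RPAD to mean total RNA (each mean + 1) were taken for the 91 hosts with that many exonic reads. R3hdm1 was at 17.5, against a median of 1.65, and 6 hosts were higher. The locus was picked on this contrast and the 91 hosts by RPAD reads alone, so nothing is read from this rank.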

How the data were processed

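After depletion of ribosomal RNA, amplified and sheared cDNA received adaptors and 17 cycles of PCR, per the labels' protocols. The tools named are cutadapt, TopHat and Cufflinks 2.2.1, with the mm9 genome, per the submitters' processing notes. For the back-splice caller, the name is not given in the sources. The deposited values are raw counts of back-splice reads per circle, 1 file per library, per the file headers. A score column (0 to 3, unexplained) in the deposited files was 0 for every R3hdm1 entry.

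A circle was chromosome, start, end and strand (mm9, counted from 1), and an unlisted circle had 0 reads. None of the 8067 transcript names matched the gene name table (0 matched), so the gene was found by position. The whole tables were fitted with edgeR 4.0.16 in R 4.3.3 (quasi-likelihood test, TMM, filterByExpr with minimum count 5 and total 10, group as the only term, Benjamini-Hochberg threshold 0.05), with the SE taken as the absolute log2 fold change over the square root of F. DESeq2 1.42.0, other filters, other scalings, a replicate block and left-out libraries were alternatives. Exonic circles with at least 10 reads over the 4 libraries, and the 5 most similar hosts, were named. Members and lists were chosen with earlier results of these data known. Tables and plots were made in Python 3.11.15 with pandas 2.3.3, matplotlib 3.10.9 and scipy 1.17.1. Circle sequences were not analysed here.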

Additional observations from a re-analysis of the deposited data

How the results depend on the processing

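Of 79 alternative values computed for the R3hdm1 locus and for both fits, 65 were unchanged and 12 moved. A further 2 passed the threshold where the reported value did not, and 0 reversed. Unchanged meant an equal count of calls, a fold change with the same direction and side of the threshold, or a group mean within 1 SD. Leaving out 1 of 2 libraries always shifts a group mean by less than 1 SD. Those values were bound to be unchanged and show no stability. Intronic circles listed in RPAD, for example, averaged 33.5, and were 67 or 0 with 1 RPAD library left out. Circles called numbered 0 under each alternative with all libraries and 0 to 214 with 1 library left out (184 without RPAD 1, 214 without RPAD 2). Host groups called numbered 104 with DESeq2, 2 without the low-count filter, 2 with the replicate block and 0 to 623 with 1 library left out (537 without RPAD 1). Where 1 library was left out, its partner was taken to vary as much as the other pair does, so nothing is read from the calls of those fits. The circle fits with 1 library left out tested 924 circles, of which 5 were at the locus. R3hdm1 circles called numbered 0 to 3 with 1 library left out (3 without RPAD 1, 1 without RPAD 2).

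The log2 fold change of R3hdm1 as a host was 3.66 to 4.15 with 1 library left out and passed the threshold without RPAD 1 and without RPAD 2 (edgeR, Benjamini-Hochberg adjusted p = 0.00276 and 0.00182; 0.00182 to 1.00 over its alternatives); the cause was not tested. It was 3.90 with the replicate block, which left the R3hdm1 call as it was. Deviations of same-numbered libraries correlated at 0.0201 over circles and 0.0162 over hosts, and the numbers were not taken to pair the libraries. The median log2 fold change of all tested circles was -0.15 with TMM, 0.04 with library totals alone and 0.19 with DESeq2, which changes model and scaling together; that of hosts was -0.94, -0.87 and -0.72. Exonic circles listed per total RNA library fell from 5.5 to 3.5 when at least 2 reads were required. With score 0 only, the locus had 81.7 and 1587 reads per 100000 in total RNA and RPAD, since totals shrank and no R3hdm1 entry was lost. Exonic reads alone for hosts, and reads summed per circle end or intron, were added after seeing the data. With 18 to 29 reads, total RNA limits every share at the locus.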
